A study of Mus musculus with 14 samples.

Results

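The genes described here are 37 genes of synaptic vesicles and of regulated exocytosis, the release of vesicle contents at the cell surface on a signal. They are a list of symbols, by a rule that uses no measured value. Each of the 37 symbols matched 1 of the 46517 gene rows of the expression table. The 37 genes encode 4 SNARE proteins, 6 synaptotagmins, 2 complexins, 8 active zone and priming proteins, 5 Rab proteins with 1 effector, 8 proteins of the vesicle membrane or its surface and 3 adhesion molecules of the synaptic cleft.

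RNA was sequenced from 14 lung tumours of untreated mice, taken from a pair of genetically engineered mouse models of a neuroendocrine lung cancer, small cell lung cancer. RPM tumours (n = 11) came from Rb1 fl/fl, Trp53 fl/fl mice with a Myc T58A allele, linked to a luciferase reporter, that a Lox-Stop-Lox (LSL) cassette keeps silent until Cre acts; 9 tumours were LSL/LSL and 2 were LSL/+ (RPM replicates 2 and 4). RPR2 tumours (n = 3) came from p130 fl/fl mice, in which the p130 gene Rbl2 is floxed, that were likewise Rb1 fl/fl and Trp53 fl/fl, and their labels name no Myc allele. Rb1 and Trp53 were thus floxed in both groups, and Cre was delivered to the lung by an adenovirus under the Cgrp promoter, which is active in pulmonary neuroendocrine cells. Tumours were cut out of the lung by eye, so a sample can hold other lung cells, and no age was given. The values are FPKM, mapped fragments scaled to transcript length and library depth, so levels can be set side by side between genes. In bulk tissue, fewer cells of a type and less RNA per cell cannot be told apart.

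Neurons and neuroendocrine cells release transmitters and peptide hormones by fusing vesicles with the plasma membrane. SNARE proteins on the vesicle and on the plasma membrane zip together and drive fusion. Complexins clamp and then help the zipped complex, and those synaptotagmins that bind calcium trigger fusion. Rab3 and Rab27 proteins bring vesicles to the membrane, and active zone proteins such as RIM, Munc13 and CAPS dock and prime them. Many of these genes are markers of neuroendocrine differentiation, and synaptophysin, encoded by Syp, is used to diagnose small cell lung cancer.

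RPR2 replicate 3 stood apart from the other tumours. The summed FPKM of 8 neuroendocrine markers was 206.3 to 1201 in RPM tumours, against 2853, 3961 and 12.91 in RPR2 replicates 1, 2 and 3. The summed FPKM of 8 alveolar type 2 markers was 15.62 to 891.5 in RPM tumours, against 1256, 1984 and 51960 in RPR2 tumours, so replicate 3 was lowest for the neuroendocrine and highest for the alveolar list. Myc was at 48.36 to 383.9 FPKM in RPM tumours and at 4.68, 6.83 and 13.64 FPKM in RPR2 tumours. Rbl2, for which the table does not separate the floxed exons, was at 3.43 to 9.90 FPKM in RPM and 3.58, 7.55 and 3.34 FPKM in RPR2, and so checks no label. Calls between models were therefore made both with all 14 tumours and without RPR2 replicate 3. The labels' descriptions carry different leading numbers for the models, and whatever these stand for cannot be told apart from the genotype; within RPM, replicate 9 carries a number of its own. Nothing in the labels says that the tumours came from separate mice, and RPM replicates 6 and 7 share a title number, as do 10 and 11, so p-values measure the spread between these samples.

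Most of the 37 genes were far lower in RPR2 replicate 3 than in the other RPR2 tumours. Their summed level was 300.8 to 1191 FPKM in RPM tumours, against 1301, 1413 and 145.4 FPKM in RPR2 replicates 1, 2 and 3. In RPM tumours 0 to 8 of the 37 genes were below 1 FPKM, against 2, 2 and 21 genes in RPR2 replicates 1, 2 and 3. Replicate 3 had the lowest level of all 14 for 27 genes. It lay below both other RPR2 tumours for 36 of 37 genes, against 59.9% of 15649 named genes tested, and at least 10-fold below their mean for 25 genes, against 11.9% of named genes. Syngr1, which encodes synaptogyrin 1, was the exception, at 12.05, 17.17 and 18.58 FPKM in RPR2 replicates 1, 2 and 3. RPR2 replicate 3 nevertheless lay above every RPM tumour for Cadps2, Rab3d and Rab27b.

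**Figure D1:**
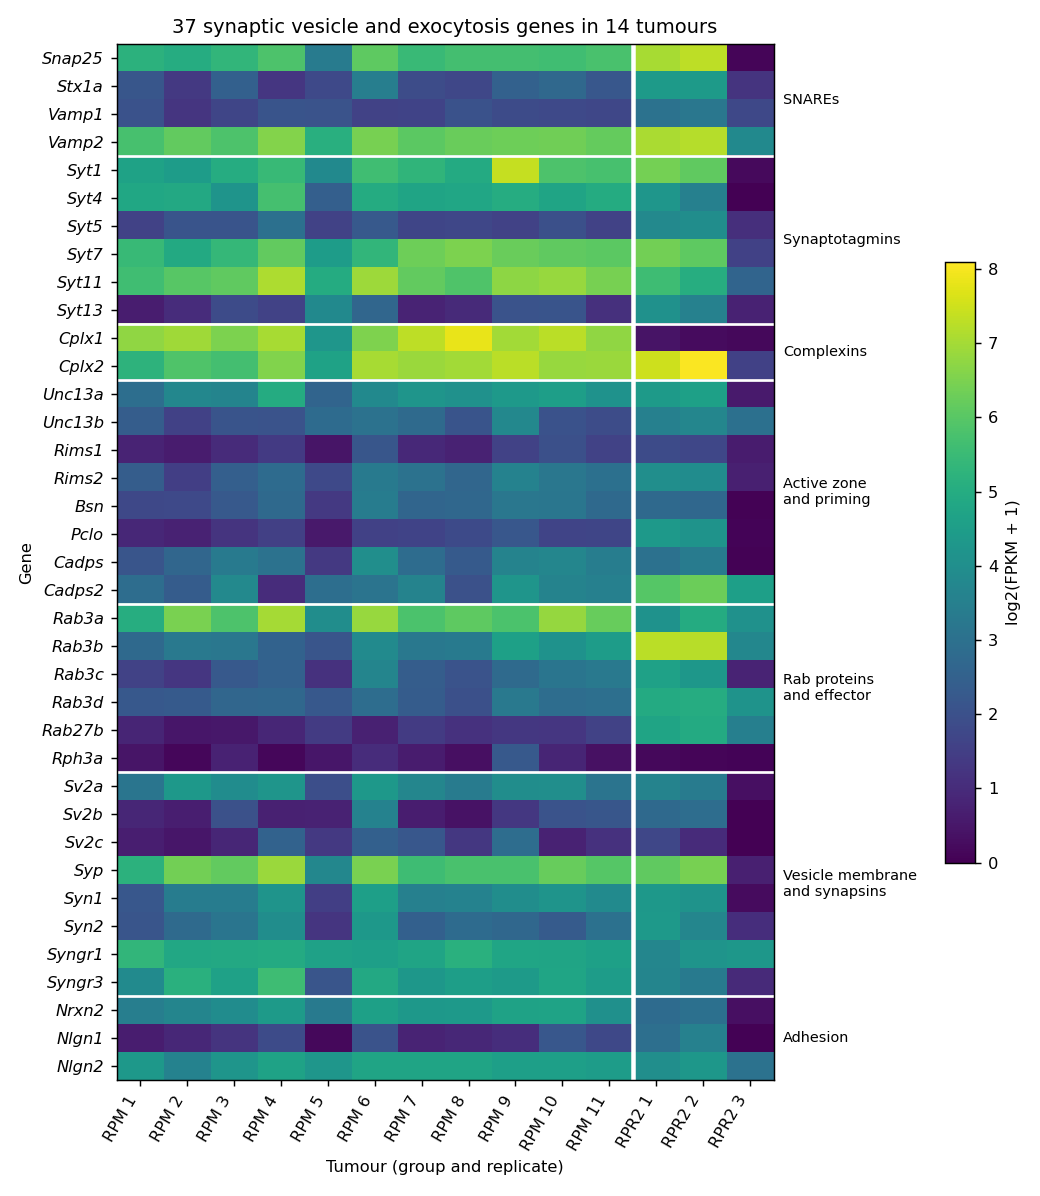
Level of the 37 genes, as log2(FPKM + 1), in each tumour. Columns are the 11 RPM tumours and then the 3 RPR2 tumours, rows are genes grouped by role, and the colour runs from 0 (dark) to about 8 (yellow). RPR2 replicate 3 is dark in most rows, Cplx1 is bright in RPM and dark in all 3 RPR2 tumours, and RPM replicate 5 is the darkest RPM column.

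With all 14 tumours, 36 of the 37 genes passed the filter of at least 1 FPKM in 3 tumours, and limma called 13 of them at an adjusted p under 0.05, which is 36.1%, against 41.2% of the 15719 genes tested. Of these, 7 were higher in RPM (19.4%, against 18.4% of all genes) and 6 were lower (16.7%, against 22.8%). The median difference over the genes was 0.57 on the log2(FPKM + 1) scale, RPM minus RPR2, against -0.06 over all genes tested. Without RPR2 replicate 3, 3 genes were higher in RPM (8.33%, against 16.4% of 15406 genes) and 15 were lower (41.7%, against 27.4%), 18 called in all (50%, against 43.9%). The median difference was then -1.0, against -0.20 over all genes. The count of higher and lower genes thus turned on 1 tumour, and also moved with the scaling of the libraries. With all 14 tumours it was 4 higher and 5 lower on the TPM scale, and 9 higher and 5 lower after quantile normalization. Calls over all 15719 genes moved as well. They were 2897 higher and 3586 lower without rescaling, 1878 and 3588 on the TPM scale, and 3657 and 3066 after quantile normalization.

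The called genes fall into 4 classes. Cplx1, Syngr1 and Nrxn2 were higher in RPM with all tumours and without RPR2 replicate 3. Vamp1, Unc13b, Cadps2, Rab3b, Rab3d and Rab27b were lower in RPM both ways. Syt4, Syt11, Rab3a and Syngr3 were called higher with all tumours only, and Snap25, Stx1a, Vamp2, Syt5, Syt13, Rims2, Pclo, Rab3c and Nlgn1 were called lower without RPR2 replicate 3 only. The other 14 genes tested, Syt1, Syt7, Cplx2, Unc13a, Rims1, Bsn, Cadps, Sv2a, Sv2b, Sv2c, Syp, Syn1, Syn2 and Nlgn2, were called in neither fit. Levels of the models did not overlap in 6 genes (16.7%, against 24.7% of all genes tested), higher in RPM for Cplx1, Syngr1 and Nrxn2 (8.33%, against 11.1% of all genes) and lower for Cadps2, Rab3d and Rab27b (8.33%, against 13.6%). Without RPR2 replicate 3, 17 genes did not overlap (47.2%, against 45.1% of all genes tested), 3 of them higher (8.33%, against 16.5%) and 14 lower (38.9%, against 28.6%).

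**Figure D2:**
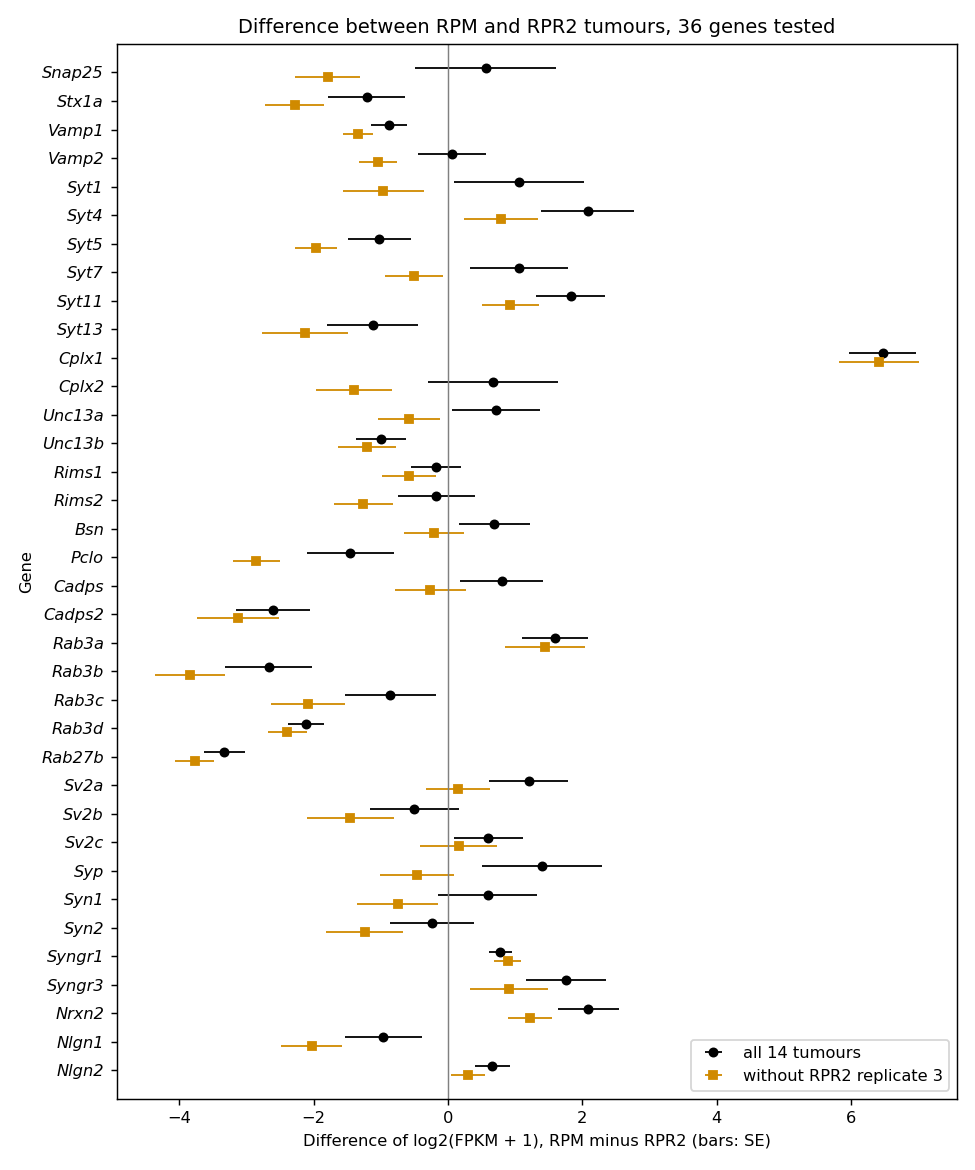
Difference of log2(FPKM + 1), RPM minus RPR2, of the 36 genes tested, with all 14 tumours (black circles) and without RPR2 replicate 3 (orange squares); bars are standard errors from limma. The 2 estimates lie on opposite sides of 0 for 10 genes, among them Snap25, Syt1, Syp and Cplx2, while Cplx1 is near 6.4 in both.

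The complexins, small proteins that bind the assembled SNARE complex, showed the largest difference of the set. Cplx1 (ENSMUSG00000033615, chromosome 5, 108518554 to 108550024, minus strand, GRCm38) was at a lowest level of 17.96, a median of 121.09 and a highest of 225.27 FPKM in RPM tumours, against 0.34, 0.17 and 0.12 FPKM in RPR2 tumours. All 11 RPM tumours were high and all 3 RPR2 tumours, replicates 1 and 2 included, were at 0.34 FPKM or less, where 3 reads on a gene of 2 kb would give 0.0656 to 0.0711 FPKM at the estimated depth. The RPM median was 356.1 times the highest RPR2 value and the lowest RPM tumour 52.82 times that value. The log2 difference was 6.47 ± 0.49 (SE; limma adjusted p = 2.876e-07) and 6.42 ± 0.60 without RPR2 replicate 3 (adjusted p = 2.741e-06). Cplx1 is also the 1 gene of the set that passed the filter on low values through RPM tumours alone. Its paralog Cplx2 had a lowest level of 24.63, a median of 115.04 and a highest of 152.53 FPKM in RPM tumours, against 176.72, 263.51 and 1.94 FPKM in RPR2 tumours. RPR2 replicates 1 and 2 were above every RPM tumour and replicate 3 was below every one. For Cplx2 the difference was 0.67 ± 0.97 (limma adjusted p = 0.6131), and -1.40 ± 0.57 without RPR2 replicate 3 (adjusted p = 0.05886).

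Because both complexins are in the same library, the share of Cplx1 in their summed FPKM does not depend on how libraries were scaled. The share was 41.19% at the lowest, 57.12% at the median and 74.21% at the highest in RPM tumours, against 0.192%, 0.06447% and 5.825% in RPR2 tumours. In every RPM tumour both complexins were thus present, with Cplx2 at 25.79% to 58.81% of the pair. In the RPR2 tumours nearly all complexin RNA was Cplx2. The shares did not overlap, RPR2 replicate 3 included, although in that tumour both genes were low. Shares are given as a description, with no test.

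**Figure D3:**
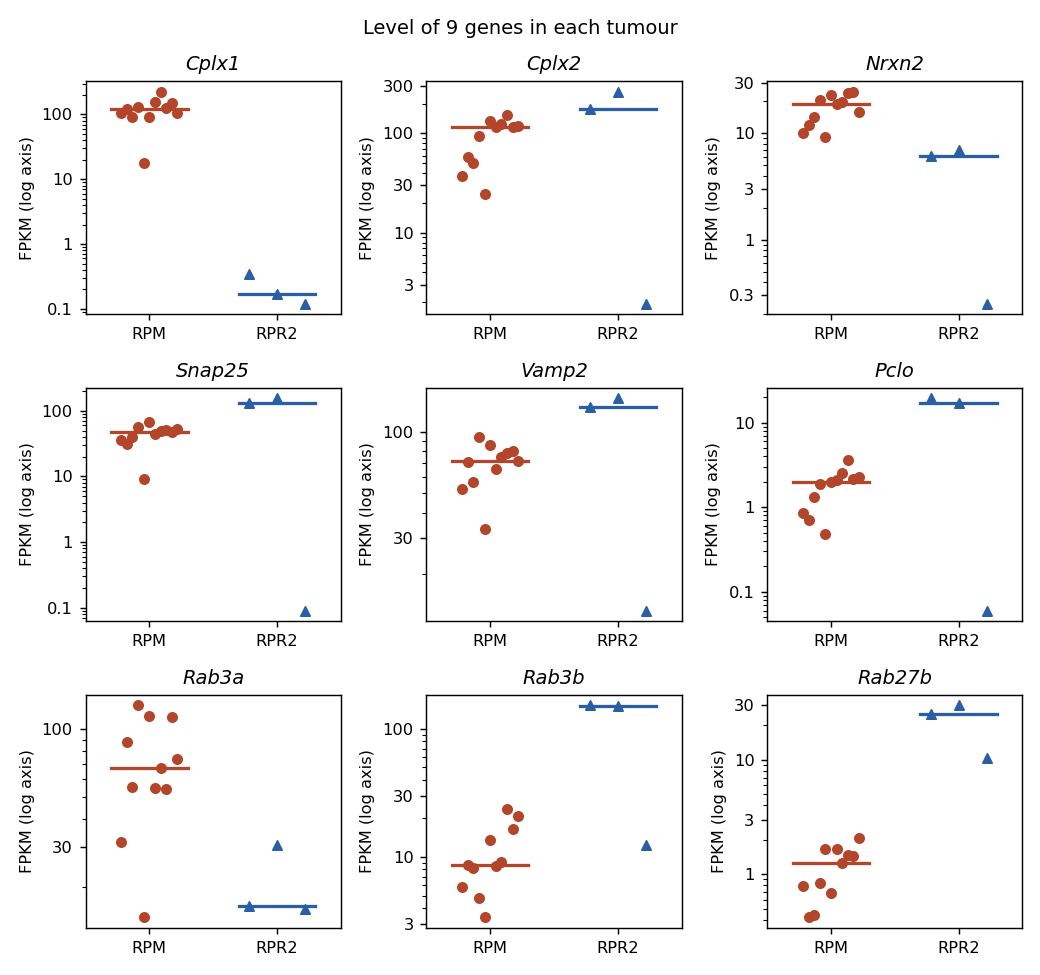
FPKM of 9 genes on a log axis in each RPM tumour (red circles, n = 11) and each RPR2 tumour (blue triangles, n = 3, replicates 1, 2 and 3 from left to right); lines are medians. Cplx1 separates the groups, Snap25, Vamp2, Pclo and Rab3b are higher in RPR2 replicates 1 and 2 than in every RPM tumour, and RPR2 replicate 3 lies far below those 2 except for Cplx1, Rab3a and Rab27b.

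The SNARE genes were at lower levels in RPM than in RPR2 replicates 1 and 2. Vamp2 encodes synaptobrevin 2, the main SNARE of the vesicle membrane, and was the most abundant of the 4. It was at a lowest level of 33.25, a median of 71.65 and a highest of 94.76 FPKM in RPM tumours, against 133.01, 145.76 and 13.24 FPKM in RPR2 tumours. The first 2 RPR2 tumours lay above and the third below all RPM tumours. On the log2 scale Vamp2 differed by 0.06 ± 0.51 (limma adjusted p = 0.9384) and, without RPR2 replicate 3, -1.04 ± 0.28 (adjusted p = 0.008749). Snap25, the plasma membrane SNARE of neurons and endocrine cells, had a lowest level of 9.25, a median of 48.45 and a highest of 66.64 FPKM in RPM tumours, against 130.83, 155.11 and 0.09 FPKM in RPR2 tumours. It showed the same arrangement, and its log2 difference was 0.56 ± 1.04 (limma adjusted p = 0.7033) with all tumours and -1.79 ± 0.48 (adjusted p = 0.008366) without RPR2 replicate 3.

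Stx1a, which encodes syntaxin 1A, the other plasma membrane SNARE, was at 1.42 to 9.96 FPKM in RPM tumours with a median of 3.52, against 20.43, 20.32 and 1.32 FPKM in RPR2 tumours. Its log2 difference was -1.21 ± 0.57 (limma adjusted p = 0.104), and -2.28 ± 0.44 without RPR2 replicate 3 (adjusted p = 0.0008496). Vamp1, a synaptobrevin found together with or in place of Vamp2, was the 1 SNARE gene called with all tumours. It was at 1.38 to 3.29 FPKM in RPM tumours with a median of 2.47, against 7.34, 8.33 and 2.39 FPKM in RPR2 tumours, and RPR2 replicate 3 lay within the RPM range. The log2 difference of Vamp1 was -0.88 ± 0.27 (limma adjusted p = 0.01747), and the call was lost without RPR2 replicate 1 (adjusted p = 0.1096) or without replicate 2 (adjusted p = 0.144). Vamp1 overlaps Tapbpl on the opposite strand, and whether the counting used the strand is not given in the sources used here. All 4 SNARE genes were lower in RPM without RPR2 replicate 3.

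The synaptotagmins divided by member. Syt11, which does not bind calcium and is abundant in brain, had the highest mean of the 6 over all tumours, with a lowest level of 30.63, a median of 70.62 and a highest of 137.86 FPKM in RPM tumours, against 47.51, 32.29 and 5.15 FPKM in RPR2 tumours. RPR2 replicates 1 and 2 lay within the RPM range and replicate 3 below it. The log2 difference was 1.83 ± 0.51 (limma adjusted p = 0.01048), and the call was lost without RPR2 replicate 3 (0.93 ± 0.43, adjusted p = 0.09334). Syt4, which occurs on dense-core vesicles of neuroendocrine cells, was at a lowest level of 4.49, a median of 27.61 and a highest of 51.03 FPKM in RPM tumours, against 18.02, 10.41 and 0.01 FPKM in RPR2 tumours. Here too RPR2 replicates 1 and 2 lay within the RPM range. The log2 difference of Syt4 was 2.08 ± 0.70 (limma adjusted p = 0.0267), and 0.79 ± 0.55 without RPR2 replicate 3 (adjusted p = 0.2576).

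Syt1 and Syt7, the fast and the slow calcium sensors of release, were not called in either fit. Syt1 was at 13.52 to 165.15 FPKM in RPM tumours with a median of 38.30, against 83.66, 68.45 and 0.16 FPKM in RPR2 tumours. Syt7 was at 21.24 to 89.38 FPKM in RPM tumours with a median of 65.45, against 81.95, 66.69 and 1.94 FPKM in RPR2 tumours. For both genes the first 2 RPR2 tumours lay within the RPM range. For Syt1 this rested on RPM replicate 9, at 165.15 FPKM. Every other RPM tumour was at 56.74 FPKM or less, below RPR2 replicates 1 and 2. Syt5, a calcium-binding synaptotagmin of dense-core vesicles, was at 2.01 to 7.0 FPKM in RPM with a median of 2.29, against 13.11, 14.53 and 1.11 FPKM in RPR2, and Syt13, which does not bind calcium, was at 0.56 to 13.24 FPKM in RPM with a median of 2.02, against 16.22, 10.72 and 0.72 FPKM in RPR2. Neither was called with all tumours (limma adjusted p = 0.09334 for Syt5 and 0.2005 for Syt13). Both were lower in RPM without RPR2 replicate 3, by a log2 difference of -1.96 ± 0.31 for Syt5 (limma adjusted p = 0.000223) and -2.13 ± 0.64 for Syt13 (adjusted p = 0.01463).

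As a share of the summed FPKM of the 6 synaptotagmins, Syt5 took 0.5349% to 2.361% in RPM tumours, with a median of 1.377%, against 5.033%, 7.154% and 12.21% in RPR2 tumours. These shares did not overlap between the models, in contrast to the levels of Syt5. Syt11 took 27.57% to 48.14% in RPM tumours, with a median of 36.14%, against 18.24%, 15.9% and 56.66% in RPR2 tumours. RPR2 replicate 3 lay above and the other RPR2 tumours below the RPM range of the Syt11 share.

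Of the 8 active zone and priming genes, Cadps2 and Unc13b were lower in RPM and the other 6 were not called with all tumours. Cadps2 encodes CAPS2, which primes dense-core vesicles, and lies on chromosome 6 at 23262773 to 23839421 (minus strand, GRCm38). It was at a lowest level of 1.03, a median of 7.64 and a highest of 17.53 FPKM in RPM tumours, against 62.04, 76.78 and 22.96 FPKM in RPR2 tumours. All 3 RPR2 tumours lay above all RPM tumours. The log2 difference was -2.60 ± 0.55 (limma adjusted p = 0.00159), and -3.12 ± 0.61 without RPR2 replicate 3 (adjusted p = 0.001005). Its paralog Cadps, which encodes CAPS1, was at 1.55 to 15.05 FPKM in RPM tumours with a median of 7.34, against 7.18, 9.44 and 0.03 FPKM in RPR2 tumours, and was not called (limma log2 difference 0.80, adjusted p = 0.3226, and -0.26, adjusted p = 0.7206, without RPR2 replicate 3). Cadps took 19.18% to 87.69% of the pair in RPM tumours, with a median of 47.91%, against 10.37%, 10.95% and 0.1305% in RPR2 tumours. The shares of the CAPS pair did not overlap.

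Bsn and Pclo encode bassoon and piccolo, a pair of very large scaffold proteins of the active zone. Pclo was at 0.48 to 3.59 FPKM in RPM tumours with a median of 1.99, against 19.39, 16.99 and 0.06 FPKM in RPR2 tumours. Replicates 1 and 2 of RPR2 lay above and replicate 3 below all RPM tumours. On the log2 scale Pclo differed by -1.45 ± 0.64 (limma adjusted p = 0.08434), and -2.85 ± 0.35 without RPR2 replicate 3 (adjusted p = 2.967e-05). Bsn was at 1.56 to 9.65 FPKM in RPM tumours with a median of 5.47, against 5.83, 5.55 and 0.04 FPKM in RPR2 tumours, and was called in neither fit. Bsn took 68.46% to 82.9% of the pair in RPM tumours, with a median of 74.27%, against 23.12%, 24.62% and 40% in RPR2 tumours. Bassoon RNA was thus the larger part in every RPM tumour and piccolo RNA in RPR2 replicates 1 and 2. In RPR2 replicate 3 both genes were too low, at 0.04 FPKM for Bsn and 0.06 FPKM for Pclo, for their order to carry weight.

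The Munc13 proteins, encoded by Unc13a and Unc13b, open syntaxin so that SNARE complexes can form, and the RIM proteins, encoded by Rims1 and Rims2, tie vesicles to calcium channels. Unc13b was at 1.97 to 12.72 FPKM in RPM tumours with a median of 3.30, against 10.63, 12.22 and 6.91 FPKM in RPR2 tumours, and the groups overlapped. The log2 difference of Unc13b was -0.99 ± 0.37 (limma adjusted p = 0.04365), and it was no longer called in 13 of 23 other settings run, where its adjusted p reached 0.1718. Unc13a was at 5.07 to 30.77 FPKM in RPM tumours with a median of 15.94, against 20.20, 23.34 and 0.51 FPKM in RPR2 tumours, and was called in neither fit. It overlaps Colgalt1 on the opposite strand, at a median of 53.48 FPKM in RPM and 39.70 FPKM in RPR2 tumours. Rims2 was at 1.81 to 11.17 FPKM in RPM tumours with a median of 6.13, against 14.97, 14.34 and 0.65 FPKM in RPR2 tumours, and was called lower only without RPR2 replicate 3 (log2 difference -1.26 ± 0.44, limma adjusted p = 0.0317). Rims1 was lower than Rims2 in every tumour, at 0.36 to 3.54 FPKM in RPM and 2.61, 2.28 and 0.52 FPKM in RPR2, and was called in neither fit.

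Of the 9 genes called the same way with and without RPR2 replicate 3, 3 encode Rab proteins. Rab27b, a Rab of dense-core vesicles (chromosome 18, 69979131 to 70141605, minus strand), was at a lowest level of 0.42, a median of 1.25 and a highest of 2.06 FPKM in RPM tumours, against 25.32, 30.05 and 10.36 FPKM in RPR2 tumours. The lowest RPR2 tumour was 5.029 times the highest RPM tumour. The log2 difference was -3.33 ± 0.30 (limma adjusted p = 1.444e-06), and -3.77 ± 0.29 without RPR2 replicate 3 (adjusted p = 5.811e-07). Rab3d, the Rab3 protein of exocrine and endocrine secretory granules (chromosome 9, 21907491 to 21918192, minus strand), was at a lowest level of 2.97, a median of 5.35 and a highest of 8.69 FPKM in RPM tumours, against 30.15, 31.02 and 16.71 FPKM in RPR2 tumours. The groups did not overlap. The log2 difference of Rab3d was -2.11 ± 0.27 (limma adjusted p = 2.625e-05), and -2.39 ± 0.29 without RPR2 replicate 3 (adjusted p = 2.303e-05).

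Rab3b (chromosome 4, 108879063 to 108943324, plus strand), a Rab3 protein of neurons and endocrine cells, was at a lowest level of 3.38, a median of 8.73 and a highest of 23.56 FPKM in RPM tumours, against 153.14, 150.48 and 12.34 FPKM in RPR2 tumours. The first 2 RPR2 tumours lay far above the RPM range and the third within it. The log2 difference was -2.67 ± 0.65 (limma adjusted p = 0.004302), and -3.84 ± 0.52 without RPR2 replicate 3 (adjusted p = 6.065e-05). Rab3a, the main Rab3 protein of synaptic vesicles, went the other way, with a lowest level of 14.71, a median of 67.52 and a highest of 127.76 FPKM in RPM tumours, against 16.47, 30.65 and 16 FPKM in RPR2 tumours. Only RPM replicate 5 lay below the RPR2 tumours. For Rab3a the log2 difference was 1.59 ± 0.49 (limma adjusted p = 0.01807), and it was not called without RPR2 replicate 3 (1.44 ± 0.59, adjusted p = 0.06336), without RPR2 replicate 1 (adjusted p = 0.07562) or on the TPM scale (adjusted p = 0.05247). Rab3a overlaps Mpv17l2 on the opposite strand.

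Rab3c was at 1.25 to 11.87 FPKM in RPM tumours with a median of 4.27, against 23.98, 18.36 and 0.74 FPKM in RPR2 tumours, and was called lower only without RPR2 replicate 3 (log2 difference -2.08 ± 0.55, limma adjusted p = 0.00745). Rph3a, which encodes rabphilin, an effector that binds Rab3 and Rab27, did not pass the filter, with 0.10 to 3.77 FPKM in RPM tumours and 0.12, 0.09 and 0.05 FPKM in RPR2 tumours. Of the summed FPKM of the 4 Rab3 genes, Rab3a took 58.84% to 89.46% in RPM tumours, with a median of 76.69%, against 7.361%, 13.3% and 34.94% in RPR2 tumours. Rab3b took 3.375% to 25.42% in RPM tumours, with a median of 11.48%, against 68.45%, 65.28% and 26.95% in RPR2 tumours. Neither share overlapped between the models, RPR2 replicate 3 included.

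**Figure D4:**
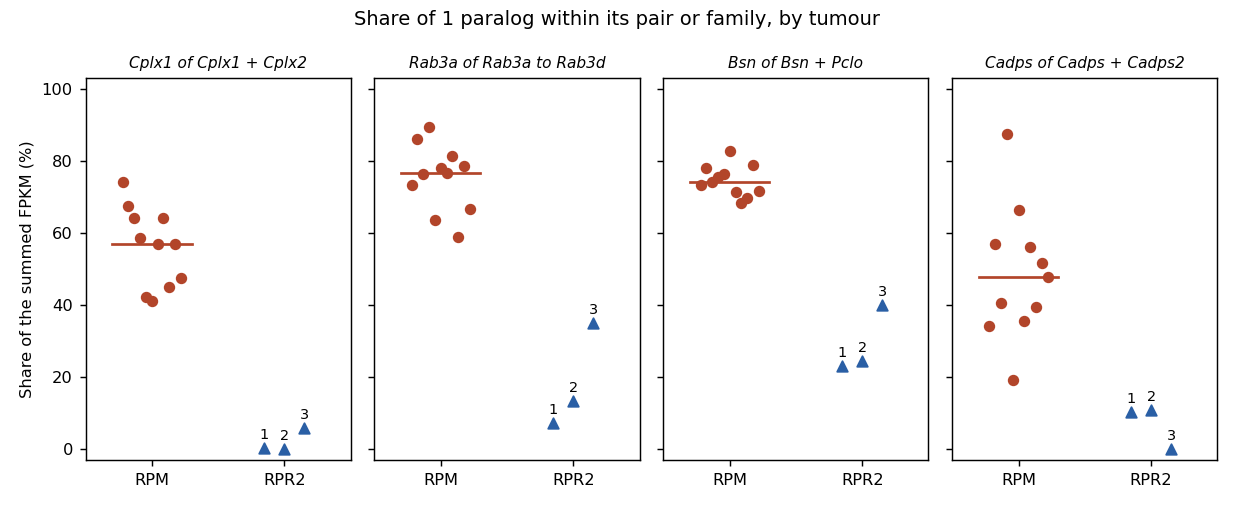
Share of 1 paralog in the summed FPKM of its pair or family, in percent, in each RPM tumour (red circles, n = 11, line at the median) and each RPR2 tumour (blue triangles, replicate numbers above). The shares of Cplx1, Rab3a, Bsn and Cadps are above 19% in every RPM tumour and higher there than in any RPR2 tumour. Families in which every share overlapped between the models are not shown.

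Among the genes of the vesicle membrane and its surface, Syngr1 and Syngr3 were higher in RPM and the other 6 were called in neither fit. Syp was the most abundant of the 8, with a lowest level of 12.33, a median of 61.47 and a highest of 117.38 FPKM in RPM tumours, against 69.00, 86.26 and 0.64 FPKM in RPR2 tumours. The first 2 RPR2 tumours lay within the RPM range. For Syp it was 1.40 ± 0.89 (limma adjusted p = 0.2249), and -0.46 ± 0.55 without RPR2 replicate 3 (adjusted p = 0.5161). Synaptogyrins are relatives of synaptophysin, and Syngr3 was at 3.36 to 46.98 FPKM in RPM tumours with a median of 22.03, against 11.99, 9.15 and 0.96 FPKM in RPR2 tumours. Its log2 difference was 1.76 ± 0.60 (limma adjusted p = 0.02819), and the call was lost without RPR2 replicate 3 (0.91 ± 0.58, adjusted p = 0.2222).

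Syngr1 was the steadiest gene of the set, at 22.68 to 39.67 FPKM in RPM tumours with a median of 26.29, against 12.05, 17.17 and 18.58 FPKM in RPR2 tumours. The groups did not overlap, and the log2 difference was 0.78 ± 0.17 (limma adjusted p = 0.002563) and 0.89 ± 0.20 without RPR2 replicate 3 (adjusted p = 0.002361). Syngr1 overlaps the ribosomal protein gene Rpl3 on the opposite strand, whose median was 1779.54 FPKM in RPM tumours and 447.44 FPKM in RPR2 tumours. If the counting did not use the strand, reads of the 2 genes cannot be told apart.

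SV2 proteins are transporter-like glycoproteins of the vesicle membrane. Sv2a was at 2.85 to 18.86 FPKM in RPM tumours with a median of 14.43, against 11.24, 9.34 and 0.27 FPKM in RPR2 tumours (limma log2 difference 1.2 ± 0.58, adjusted p = 0.1136, and 0.15 ± 0.47, adjusted p = 0.8163, without RPR2 replicate 3). Sv2b was at 0.32 to 10.98 FPKM in RPM, against 5.82, 6.47 and a listed 0 in RPR2, and Sv2c was at 0.39 to 6.37 FPKM in RPM, against 2.29, 1.0 and 0.02 FPKM in RPR2. The synapsins tether vesicles in a reserve pool. Syn1 was at 1.83 to 22.88 FPKM in RPM tumours, against 18.90, 17.01 and 0.17 FPKM in RPR2 tumours, and Syn2 was at 1.37 to 19.02 FPKM in RPM tumours, against 20.03, 12.13 and 1.10 FPKM in RPR2 tumours. Syn1 overlaps Araf and Timp1 on the opposite strand, at medians of 47.87 and 19.04 FPKM in RPM tumours, against 47.47 and 5.37 FPKM in RPR2 tumours. In all 5 genes RPR2 replicate 3 lay below every RPM tumour, and in Syn2 replicate 1 lay above every RPM tumour.

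Of the adhesion genes, Nrxn2 was higher in RPM. It encodes neurexin 2, a presynaptic receptor, and lies on chromosome 19 at 6418731 to 6544169 (plus strand, GRCm38). Nrxn2 was at a lowest level of 9.16, a median of 19.00 and a highest of 24.73 FPKM in RPM tumours, against 6.16, 7.03 and 0.25 FPKM in RPR2 tumours. The groups did not overlap, and the lowest RPM tumour was 1.303 times the highest RPR2 tumour. The log2 difference was 2.09 ± 0.45 (limma adjusted p = 0.001949), and 1.22 ± 0.33 without RPR2 replicate 3 (adjusted p = 0.008225).

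Neuroligins are postsynaptic partners of neurexins. Nlgn2 was the most abundant adhesion gene, with a lowest level of 11.01, a median of 22.76 and a highest of 25.74 FPKM in RPM tumours, against 15.15, 18.47 and 7.32 FPKM in RPR2 tumours, and its log2 difference of 0.66 ± 0.26 just missed the threshold (limma adjusted p = 0.05195; 0.30 ± 0.25 and adjusted p = 0.3509 without RPR2 replicate 3). Nlgn1 was at 0.14 to 3.59 FPKM in RPM tumours with a median of 1.09, against 6.83, 10.83 and 0.04 FPKM in RPR2 tumours, and was lower in RPM only without RPR2 replicate 3 (log2 difference -2.03 ± 0.45, limma adjusted p = 0.002405). Nlgn2 took 86.38% to 99.24% of the pair in RPM tumours, against 68.93%, 63.04% and 99.46% in RPR2 tumours.

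The pairs of complexins, bassoon with piccolo, and CAPS proteins had shares that did not overlap between the models. In the SV2, Vamp1 with Vamp2, Munc13, synapsin, synaptogyrin, RIM and neuroligin families, every share overlapped between the models. So did the shares of Rab3c, Rab3d and every synaptotagmin but Syt5. Promoters are shown for the 6 genes of the 3 pairs without overlap. Each runs from 250 bases before to 50 bases after the transcript start of RefSeq (GRCm38.p6). Capitals mark any CACGTG, the E-box that Myc with Max prefers, any CAGCTG, an E-box bound by several bHLH factors, and any CAGATG or its other strand CATCTG, an E-box bound by NeuroD and related factors. The start that RefSeq gives for Cplx2 lies before the start of the gene in GENCODE. Its window ends at 54302605 and the GENCODE gene starts at 54371349, so the window lies far outside that gene.
Cplx1, chr5:108549978-108550277, minus strand: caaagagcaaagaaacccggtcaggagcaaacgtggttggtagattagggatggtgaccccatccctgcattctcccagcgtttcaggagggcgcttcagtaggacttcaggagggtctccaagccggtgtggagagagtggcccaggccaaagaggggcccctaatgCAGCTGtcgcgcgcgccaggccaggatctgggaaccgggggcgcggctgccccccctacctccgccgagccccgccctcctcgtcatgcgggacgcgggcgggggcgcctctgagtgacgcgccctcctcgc
Cplx2, chr13:54302306-54302605, plus strand: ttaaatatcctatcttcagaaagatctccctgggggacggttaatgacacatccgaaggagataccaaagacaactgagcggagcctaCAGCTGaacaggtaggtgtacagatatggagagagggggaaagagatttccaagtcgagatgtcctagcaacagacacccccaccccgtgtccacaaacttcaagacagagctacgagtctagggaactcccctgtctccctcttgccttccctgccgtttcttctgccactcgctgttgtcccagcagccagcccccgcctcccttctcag
Bsn, chr9:108190334-108190633, minus strand: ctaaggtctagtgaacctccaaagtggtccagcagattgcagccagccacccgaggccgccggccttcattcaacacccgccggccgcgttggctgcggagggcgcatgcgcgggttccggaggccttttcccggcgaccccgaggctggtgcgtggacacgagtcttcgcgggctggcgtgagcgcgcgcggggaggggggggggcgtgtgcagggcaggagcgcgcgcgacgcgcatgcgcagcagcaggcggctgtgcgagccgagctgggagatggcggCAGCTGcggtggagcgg
Pclo, chr5:14514668-14514967, plus strand: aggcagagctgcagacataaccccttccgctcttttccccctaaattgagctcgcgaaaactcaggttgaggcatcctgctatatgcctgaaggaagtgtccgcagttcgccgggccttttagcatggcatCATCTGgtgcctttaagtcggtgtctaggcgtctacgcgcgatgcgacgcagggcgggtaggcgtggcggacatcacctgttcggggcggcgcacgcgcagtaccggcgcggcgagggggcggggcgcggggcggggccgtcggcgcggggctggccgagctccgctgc
Cadps, chr14:12823030-12823329, minus strand: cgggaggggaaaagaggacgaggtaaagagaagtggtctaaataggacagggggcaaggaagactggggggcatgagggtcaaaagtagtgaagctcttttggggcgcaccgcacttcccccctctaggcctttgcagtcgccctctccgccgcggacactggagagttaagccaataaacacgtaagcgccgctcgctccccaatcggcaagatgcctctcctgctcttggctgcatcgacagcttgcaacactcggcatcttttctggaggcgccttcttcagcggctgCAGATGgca
Cadps2, chr6:23839372-23839671, minus strand: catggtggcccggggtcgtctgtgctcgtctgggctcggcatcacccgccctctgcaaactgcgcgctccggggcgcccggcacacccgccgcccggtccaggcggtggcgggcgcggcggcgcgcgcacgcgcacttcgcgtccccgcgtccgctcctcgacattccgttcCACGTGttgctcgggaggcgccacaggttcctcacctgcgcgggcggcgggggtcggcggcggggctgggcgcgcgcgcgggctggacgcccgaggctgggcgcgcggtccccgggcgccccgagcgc
Each of the 6 windows holds 1 such hexamer. CACGTG is in Cadps2 only, CAGCTG is in Cplx1, Cplx2 and Bsn, and CAGATG or CATCTG is in Pclo and Cadps. The window of Cplx1, which was higher in RPM, and that of Cplx2, which was called in neither fit, thus hold the same hexamer.

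RefSeq gave a promoter for 27 of the 37 genes, 36 promoters in all. CACGTG was in 3 of the 36 (8.33%; Cadps2, Sv2b and Unc13b), against 7.15% of all 32851 promoters of the same length. CAGCTG was in 10 of the 36 (27.8%), against 16.3% of all promoters, and the genes with it were Bsn, Cplx1, Cplx2, Nlgn2, Rab3a, Rab3c, Rph3a, Stx1a, Sv2a and Syt1. CAGATG or CATCTG was in 4 of the 36 (11.1%), against 17.2% of all promoters, in Cadps, Pclo, Rph3a and Syn2. CACGTG and CAGCTG read the same on both strands, and no pair of these hexamers can overlap. A match is a description of the letters and not of binding, and some genes have several promoters.

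Markers of some other cell types also moved with the models. In both fits 0 of 4 endothelial, 0 of 4 macrophage and 0 of 2 platelet markers tested were called. The fibroblast markers split, with Col1a1 and Col1a2 higher and Dcn lower in RPM both ways. Cd4, the 1 T cell marker tested, was higher in RPM both ways, at 1.23 to 8.18 FPKM in RPM and 0.65, 0.52 and 0.19 FPKM in RPR2. Of the 2 glia markers tested, only Mbp was called, lower in RPM without RPR2 replicate 3. The summed FPKM of 6 markers of simple epithelium was 4.77 to 155.4 in RPM tumours, against 2176, 2445 and 1730 in RPR2 tumours, and all 6 were lower in RPM with and without RPR2 replicate 3. The summed FPKM of 3 club cell markers was 0.88 to 1522 in RPM tumours, against 3464, 25530 and 839.1 in RPR2 tumours, all 3 lower in RPM both ways. The 4 neuron markers summed to 2.47 to 22.14 FPKM in RPM tumours, against 65.86, 63.93 and 0.08 FPKM in RPR2 tumours, and 2 of them, Slc17a7 and Gad2, were under 0.5 FPKM in every tumour. The sum in RPR2 was nearly all Gad1, at 0.15 to 8.33 FPKM in RPM tumours, against 65.07, 63.03 and 0.01 FPKM in RPR2 tumours. Rbfox3 was at 1.99 to 16.89 FPKM in RPM tumours, against 0.51, 0.80 and 0.02 FPKM in RPR2 tumours, and was higher in RPM both ways (limma log2 difference 2.35, adjusted p = 0.001014, and 2.12, adjusted p = 0.006459, without RPR2 replicate 3). Both Rbfox3 and Cd4 passed the filter on low values through RPM tumours alone, where they are high. The 4 glia markers summed to 8.6 to 32.27 FPKM in RPM tumours, against 52.57, 46.84 and 13.11 FPKM in RPR2 tumours. The 3 platelet markers, cells that hold Rab27b in their granules, summed to 1.23 to 16.55 FPKM in RPM tumours, against 5.77, 4.51 and 538.7 FPKM in RPR2 tumours. Of the 538.7 FPKM in RPR2 replicate 3, 535.4 FPKM was Pf4; Itga2b was at 3.26 FPKM there, within its RPM range of 0.36 to 3.84 FPKM, and Ppbp was under 0.5 FPKM in every tumour. The part of these cells in the differences of the 37 genes was not tested.

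Of 47 further genes of neuronal release (other syntaxins, Munc18, synaptotagmins, RIM-binding and liprin proteins and the like), 42 were tested, 7 were higher and 7 were lower in RPM (18.4% and 22.8% of all genes tested were), with a median log2 difference of 0.06. Without RPR2 replicate 3, 3 were higher and 14 lower (16.4% and 27.4% of all genes), with a median of -0.55. Doc2a, a calcium sensor of spontaneous release, was at 8.94 to 37.97 FPKM in RPM tumours with a median of 29.22, against 1.19, 1.58 and 0.06 FPKM in RPR2 tumours (log2 difference 3.94 ± 0.35, limma adjusted p = 9.596e-07). Its level did not overlap between the models, like that of Cplx1. Rims4, a short RIM protein (2.10, limma adjusted p = 7.221e-05), and Erc2, an active zone scaffold (1.64, adjusted p = 0.0008627), were higher in RPM, and Rab3gap1, which turns off Rab3 (-0.94, adjusted p = 0.006403), was lower. These 4 were called the same way without RPR2 replicate 3. Rims4 and Erc2, however, passed the filter on low values through RPM tumours alone, where they are high. In RPR2 tumours Rims4 was at 0.92, 0.06 and 0.01 FPKM and Erc2 at 0.34, 0.39 and 0.01 FPKM.

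Of 47 widely expressed SNARE, exocyst and granule genes, 43 were tested, and limma called 20 lower and 0 higher in RPM (23 lower and 0 higher at an unadjusted p under 0.05), where 22.8% of all genes tested were lower and 18.4% higher, with a median log2 difference of -0.52. Without RPR2 replicate 3, limma called 22 lower and 0 higher (25 and 0 at an unadjusted p under 0.05), against 27.4% and 16.4% of all genes, with a median of -0.70. Sytl1, an effector of Rab27, was at 0.15 to 1.07 FPKM in RPM tumours with a median of 0.36, against 7.48, 20.43 and 6.91 FPKM in RPR2 tumours (log2 difference -2.96, limma adjusted p = 1.604e-06). Like Rab27b, it was above all RPM tumours in all 3 RPR2 tumours. Stxbp2, which encodes Munc18-2 of epithelial and blood cells, was lower in RPM by a log2 difference of -3.26 (limma adjusted p = 5.084e-05), Stx3, an apical syntaxin of epithelia, by -2.47 (adjusted p = 7.182e-05), and Stxbp3, which encodes Munc18c, by -1.88 (adjusted p = 0.0001096). All 4 named genes were also lower without RPR2 replicate 3, by -3.21 for Sytl1, -2.80 for Stxbp2, -2.73 for Stx3 and -1.83 for Stxbp3. Stxbp2 was at 2.85 to 16.86 FPKM in RPM tumours, against 48.83, 65.48 and 148.1 FPKM in RPR2 tumours. It was highest in RPR2 replicate 3, the tumour with the highest alveolar markers. Of the RPR2 tumours, the same replicate was lowest for Sytl1 and for Stx3, which was at 15.61, 15.07 and 8.56 FPKM. The part of alveolar cells in these values was not tested.

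Of 26 genes of vesicle recycling, 4 were higher and 4 lower in RPM (18.4% and 22.8% of all genes tested were), with a median of -0.18, and 3 higher and 8 lower without RPR2 replicate 3 (16.4% and 27.4% of all genes), with a median of -0.57. Hspa8, the chaperone that strips clathrin coats, was higher in RPM (log2 difference 2.06, limma adjusted p = 0.0002003), as was Bin1, encoding amphiphysin 2 (1.21, adjusted p = 0.0007789). The dynamins Dnm3 (-1.92, limma adjusted p = 0.0002883) and Dnm2 (-1.45, adjusted p = 0.0004092), which pinch vesicles off the membrane, were lower. These 4 were called the same way without RPR2 replicate 3, with log2 differences of 2.35 for Hspa8, 1.51 for Bin1, -2.0 for Dnm3 and -1.90 for Dnm2. Of 23 genes that fill vesicles with transmitter, 19 were tested, 1 was higher and 4 lower, where 18.4% and 22.8% of all genes tested were, with a median of -0.30. Without RPR2 replicate 3, limma called 5 of 17 lower and 0 higher (7 and 0 at an unadjusted p under 0.05), against 27.4% and 16.4% of all genes. Slc18a1, the vesicular monoamine transporter of endocrine cells, was at 0.02 to 0.40 FPKM in RPM tumours with a median of 0.13, against 45.87, 90.81 and 1.30 FPKM in RPR2 tumours (log2 difference -4.22 ± 0.69, limma adjusted p = 0.0002184). Its level did not overlap between the models. The nucleotide transporter Slc17a9 was at 0.09 to 0.75 FPKM in RPM tumours, against 1.0, 5.54 and 5.75 FPKM in RPR2 tumours (-1.73, limma adjusted p = 0.000277). Both transporters passed the filter on low values through the RPR2 tumours alone, where they are high, and neither was tested without RPR2 replicate 3. The proton pump subunit Atp6v1g1 (-0.75, limma adjusted p = 0.01391) was lower, and Atp6v1g2, the brain form of that subunit, was higher (1.15, adjusted p = 0.02306), but neither was called without RPR2 replicate 3 (adjusted p = 0.08694 and 0.09863).

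**Figure D5:**
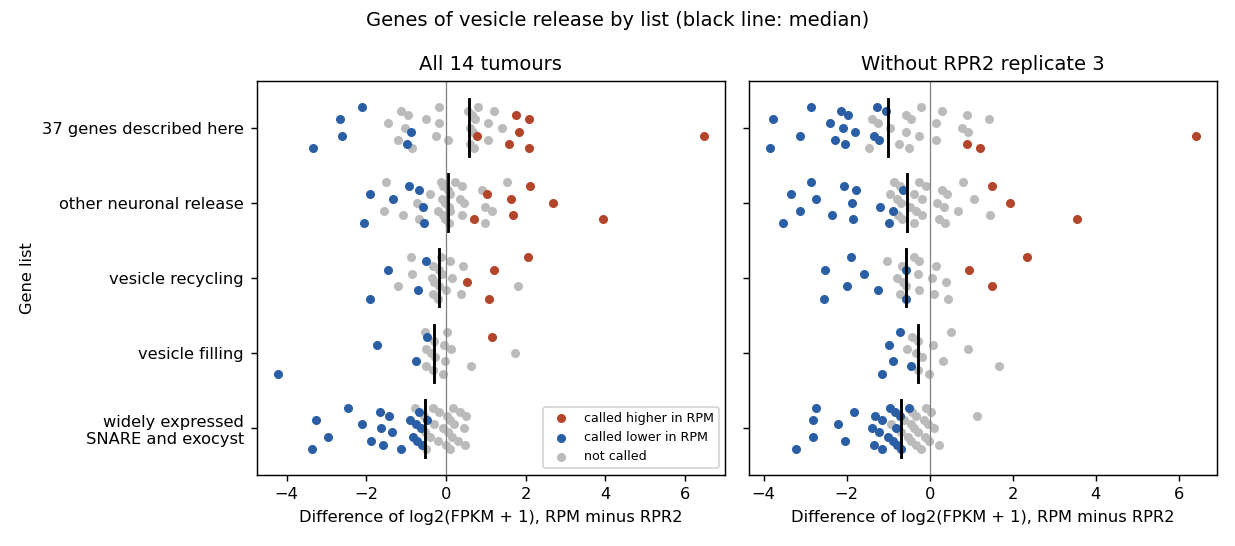
Difference of log2(FPKM + 1), RPM minus RPR2, of each gene tested in 5 lists, with all 14 tumours (left) and without RPR2 replicate 3 (right). Points are genes, red where called higher and blue where called lower in RPM, and black lines are medians; the median of the 37 genes described here was 0.57 on the left and -1.0 on the right.

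Within RPM, the 37 genes spread widely between tumours. The SD of log2(FPKM + 1) over the 11 RPM tumours had a median of 0.70 over the genes tested, against 0.38 over all named genes tested, and ran from 0.24 for Syngr1 to 0.97 for Sv2b. RPM replicate 5 had the lowest RPM value for 23 of the 37 genes, and their lowest summed level, 300.8 FPKM. In the same tumour the sum of neuroendocrine markers was the lowest of RPM (206.3 FPKM), and those of simple epithelium (155.4 FPKM) and club cells (1522 FPKM) were the highest. The part of these cells was not tested; leaving the tumour out kept all 13 genes called and added Sv2a (adjusted p = 0.0492 by limma). Replicate 9, whose description carries its own leading number, had the highest RPM value for 10 genes, and replicates 4 and 6 for 9 each. The mean absolute log2 difference over the genes was 0.74 between replicates 6 and 7 and 0.32 between 10 and 11, the pairs that share a title number, against a median of 0.66 and a range of 0.29 to 1.65 over the 53 other pairs. A limma fit with title number as a random effect lets samples that share a number be correlated. The correlation estimated over all genes was 0.7618 between models and 0.6381 in the allele comparison. Between models that fit called the same 7 genes higher and 6 lower, and 2584 higher and 3293 lower over all genes. The other fits treat all samples as separate.

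The Myc allele dose was compared within RPM, 9 LSL/LSL against 2 LSL/+ tumours. Of the 36 genes tested 0 were called by limma, as 1 of 14862 genes was (0.00673%), and 3 had an unadjusted p under 0.05; the lowest adjusted p was 0.2328. The median log2 difference was 0.11, LSL/LSL minus LSL/+, against 0.16 over all genes. Cadps2 was at 3.04 to 17.53 FPKM in LSL/LSL tumours, with a median of 10.61, against 4.12 and 1.03 FPKM in LSL/+ tumours, and the groups overlapped (log2 difference 1.62 ± 0.48, limma adjusted p = 0.2328). Stx1a was at 2.27 to 9.96 FPKM in LSL/LSL tumours with a median of 3.61, against 1.56 and 1.42 FPKM in LSL/+ tumours. Stx1a was higher without overlap between the groups, as 6.68% of all genes tested were. Syngr3 was at 3.36 to 28.55 FPKM in LSL/LSL tumours with a median of 21.07, against 34.29 and 46.98 FPKM in LSL/+ tumours, lower without overlap, as 2.68% of all genes tested were (9.36% in either direction). Rph3a, which was not tested, was at 0.25 to 3.77 FPKM in LSL/LSL tumours, against 0.10 and 0.11 FPKM in LSL/+ tumours. By limma, 0 markers of club cells, simple epithelium and alveolar type 2 cells were called after adjustment, but 3 of 3, 5 of 6 and 4 of 8 had a positive difference, LSL/LSL minus LSL/+, at an unadjusted p under 0.05. Their median log2 differences were 3.93 for club cells, 2.18 for simple epithelium and 2.80 for alveolar type 2 cells. The summed club cell markers were at 1.37 to 1522 FPKM in LSL/LSL tumours with a median of 576.1, against 16.1 and 0.88 FPKM in LSL/+ tumours. Those of simple epithelium were at 9.87 to 155.4 FPKM in LSL/LSL tumours, against 8.15 and 4.77 FPKM in LSL/+ tumours, and those of alveolar type 2 cells at 18.49 to 891.5 FPKM, against 24.64 and 15.62 FPKM. The part of these cells in the allele values was not tested. The 2 LSL/+ tumours were themselves unlike: replicate 2 had the lowest RPM value for 7 genes and replicate 4 the highest for 9.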

How the data were processed

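The authors' deposited table gives 1 FPKM value per gene and tumour for 46517 Ensembl gene rows; 1 reporter row listed at 0 in every tumour was left out. Per the labels' protocols, libraries were poly(A)-selected, stranded and sequenced from a single end. RSEM 1.2.12, Bowtie 1.0.1 and mm10 are named in the submitters' processing notes; which annotation was used, whether counting used the strand and how libraries were scaled is not given in the sources used here. Because RSEM divides reads among genes they match, values of close paralogs depend on that division.

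Samples were grouped by the genotype label. Values were analysed as log2(FPKM + 1), which understates the change of low genes. Genes with at least 1 FPKM in at least 3 libraries were compared by limma 3.58.1 (R 4.3.3), with moderated variances that follow the mean level, and p-values were adjusted by the Benjamini-Hochberg method over all genes tested, with a threshold of 0.05. The script was tested on simulated data with 200 changed genes of higher mean level. Between models it called 51% of those changed by 1 on the log2 scale and 93% of those changed by 2. In the allele comparison it called 51% and 89%. It also called 9 and 11 unchanged genes. A gene that was not called can thus still differ. The 37 genes, the other lists and the markers were chosen with earlier results of these data known. Values in each RPR2 tumour, with the lowest, median and highest RPM value, are given for genes called with an absolute log2 difference of at least 2 and for the most abundant gene of each role, and up to 4 called genes with the smallest p are named from each other list. Other genes are given by their difference, range or values, and a paralog's share is its FPKM over the summed FPKM of its family.

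The table holds no counts. Single-read steps of low values point to about 17.25 to 19.85 M mapped reads in RPM and 21.1 to 22.85 M in RPR2 libraries, assuming reads of 50 bases; 70.9% to 76.5% of low values fell within 0.15 of a whole read, so no count model was fitted. Gene positions follow GENCODE (GRCm38, equal to mm10), and promoters follow RefSeq (GRCm38.p6). No pair of libraries held the same values: at most 3.35% of values above 0 were identical.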

Additional observations from a re-analysis of the deposited data

Results flagged for a closer look

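In 7 of the 37 genes the highest of the 9 LSL/LSL tumours stood off from the other 8 by more than Dixon's critical share of the range (0.493). The gaps were taken on FPKM and not on the log2 scale used elsewhere. Chance flags about 1 in 20 groups where values are normally distributed. Whether FPKM values are was not tested, so the 7 genes cannot be set against that rate. Such gaps were found in RPM replicates 5, 6 and 9 only.

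In RPM replicate 9, the only RPM tumour whose description carries its own leading number, Syt1 was at 165.15 FPKM, against 56.74 FPKM in the next LSL/LSL tumour. Of the LSL/LSL tumours it also held the highest Unc13b, at 12.72 FPKM against 7.23 FPKM in the next, and the highest Rph3a, at 3.77 FPKM against 1.04 FPKM. Rph3a was at 1.04 FPKM or less in the 13 other tumours of either model.

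Of the LSL/LSL tumours, RPM replicate 6 held the highest Sv2b, at 10.98 FPKM against 3.51 FPKM in the next, the highest Syn2, at 19.02 FPKM against 7.95 FPKM (the LSL/+ replicate 4 was at 14.8 FPKM), and the highest Stx1a, at 9.96 FPKM against 5.64 FPKM. RPM replicate 7, which shares its title number, was at 0.56 FPKM for Sv2b, 4.57 FPKM for Syn2 and 2.72 FPKM for Stx1a.

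Syt13 was at 13.24 FPKM in RPM replicate 5, against 5.4 FPKM in the next LSL/LSL tumour, although that tumour had the lowest RPM value for 23 of the 37 genes. Its Syt13 share of the synaptotagmins, 15.55%, was above that of every other tumour, the RPR2 tumours (6.227%, 5.278% and 7.921%) included.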

How the results depend on the processing

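No paired analysis was possible because the titles of RPM and RPR2 samples, and those of LSL/LSL and LSL/+ samples, share no number. Cplx1, Syngr1, Nrxn2, Cadps2, Rab3b, Rab3d and Rab27b were called in the same direction in all 23 other settings; the log2 difference ran from 6.32 to 8.48 for Cplx1, from 1.22 to 2.74 for Nrxn2 and from -4.14 to -3.05 for Rab27b. Over all settings, 739 of 820 values kept direction and call, 26 lost and 26 gained a call, and 29 reversed. The 7 higher genes became 4 on the TPM scale, which moved the median of all genes to -0.23, and the 6 lower genes became 18 with array weights. Over all 15719 genes tested, higher calls went from 2897 to 1878 on the TPM scale, and lower calls from 3586 to 6577 with array weights. Leaving out 1 tumour in turn gave 3 to 8 higher and 4 to 15 lower genes, the 3 and the 15 without RPR2 replicate 3. Over all genes tested, these fits gave 2276 to 3033 higher and 2360 to 4227 lower. The allele comparison gave 0 of the 36 genes throughout. Besides losing its call without RPR2 replicate 3, Syt4 lost it on the TPM scale (limma adjusted p = 0.0681) and with LSL/LSL tumours alone (0.05324), and Syngr3 in these settings (0.07219 and 0.05496) and without a filter (0.05148).

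Leaving out 1 RPR2 tumour reversed 14 log2 differences. Without RPR2 replicate 3 each was at its lowest and without replicate 1 or 2 at its highest: the range was -1.79 to 1.79 for Snap25, -1.04 to 0.64 for Vamp2, -0.96 to 2.14 for Syt1, -0.50 to 1.91 for Syt7, -1.40 to 1.85 for Cplx2, -0.58 to 1.42 for Unc13a, -0.21 to 1.15 for Bsn, -0.26 to 1.41 for Cadps, -0.46 to 2.41 for Syp, -0.75 to 1.30 for Syn1, -0.58 to 0.05 for Rims1, -1.26 to 0.38 for Rims2, -1.45 to 0.00042 for Sv2b and -1.24 to 0.42 for Syn2. Array weights, which let libraries weigh unequally, reversed Snap25 (-1.65), Vamp2 (-0.99), Syt1 (-0.64), Syt7 (-0.12), Cplx2 (-1.29), Unc13a (-0.47), Cadps (-0.24), Syp (-0.47) and Syn1 (-0.50). Rims2 was 0.02 with a pseudocount of 0.1, and Vamp2 was -0.14 on the TPM scale, -0.19 after quantile normalization and -0.00419 with LSL/LSL tumours alone. The cause of these changes was not tested. With 3 RPR2 tumours, 1 of them unlike the others, and 2 LSL/+ tumours, the number of tumours limits precision; depth is only estimated.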
